A study of Bos taurus with 48 samples.

Results

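MicroRNA-21 (miR-21) was described through its 2 mature products, bta-miR-21-5p and bta-miR-21-3p, in the mammary gland and liver of cows. The members were the rows of the deposited table named for either arm, which are 2 of the 524 bovine miRNAs in the table. The rule used names and no measured value, but it was set with earlier results of these data known. The 48 samples were small RNA libraries of liver, of mammary parenchyma (the part of the gland that holds the epithelial ducts) and of the mammary fat pad around it. The animals had received milk replacer ad libitum, a restricted amount of milk replacer, or the control feeding, which the labels do not describe further. In that order of feeding there were 6, 6 and 5 samples of liver, 6, 6 and 3 of parenchyma, and 6, 6 and 4 of the fat pad. The ad libitum and restricted samples together are called the milk replacer samples, and each sample is named by the number in its label. The age of the animals is not stated in the sources used here, nor whether a number marks an animal, so a p-value measures how samples vary, and some of that variation may be technical.

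A miRNA is cut from a hairpin precursor whose stem yields a short duplex of a 5p and a 3p strand. One strand, the guide, is kept by an Argonaute protein and directs it to partly matching messenger RNAs, while the passenger strand is mostly degraded. In human and mouse cells the 5p strand is the guide of miR-21. It is abundant in many tissues, represses the tumour suppressor PDCD4, and is induced in inflammation, fibrosis and many tumours. In the RefSeq annotation of the cow assembly ARS-UCD2.0 the gene, MIR21, has VMP1 as its nearest neighbour, and the human primary transcript of miR-21 starts within that gene.

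Values, called normalized counts here, are read counts after division by a size factor that the authors set for each library. In each library they were whole multiples of 1 step, and no value above 0 was below 6 steps, so a miRNA listed at 0 can stand for up to 5 reads. The reads recovered in this way ranged from 826776 to 5146724 per liver library, from 6193678 to 11291532 per parenchyma library and from 2123962 to 9522666 per fat pad library. The labels of the tissues were set against lists of cell type miRNAs. Epithelial miRNAs (9 of 10 listed were in the table) summed to 61328 to 110804 in the milk replacer parenchyma, against at most 436 in the fat pad. In the 3 control parenchyma samples the same sum was 421, 92.5 and 290.5 (replicates 1, 2 and 18), with miR-429 at 0 in each, so their defining epithelial miRNAs were near the level of the fat pad. For miR-21-5p, comparisons with control parenchyma are therefore given with and without each of these samples. For miR-21-3p and the ratio of the arms only some of these fits are given. The 4 hepatocyte miRNAs of the list, miR-122, miR-192, miR-194 and miR-148a, summed to at least 1379750 in each liver sample and to at most 604342 in any mammary sample.

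miR-21-5p was abundant in every tissue and was highest in liver and in milk replacer parenchyma. In the 6 ad libitum livers its normalized count ranged from 140851 to 337212 with a median of 263070. In the restricted livers it ranged from 158985 to 355093 (median 250790, 6 samples), and the 5 control livers had 191381, 292226, 245459, 286956 and 254203. The ranges of the 3 feeding groups overlapped in liver. In parenchyma the ad libitum samples ranged from 100360 to 296183 (median 143341) and the restricted samples from 126421 to 225841 (median 172725). The 3 control parenchyma samples had 36412, 43247 and 244335, that is, replicates 1 and 2 were below every milk replacer parenchyma sample and replicate 18 was within their range. The fat pad held less: 41733 to 84100 ad libitum (median 61941), 38162 to 70625 restricted (median 49938), and 55639, 66151, 63132 and 65171 in the 4 control samples.

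**Figure D1:**
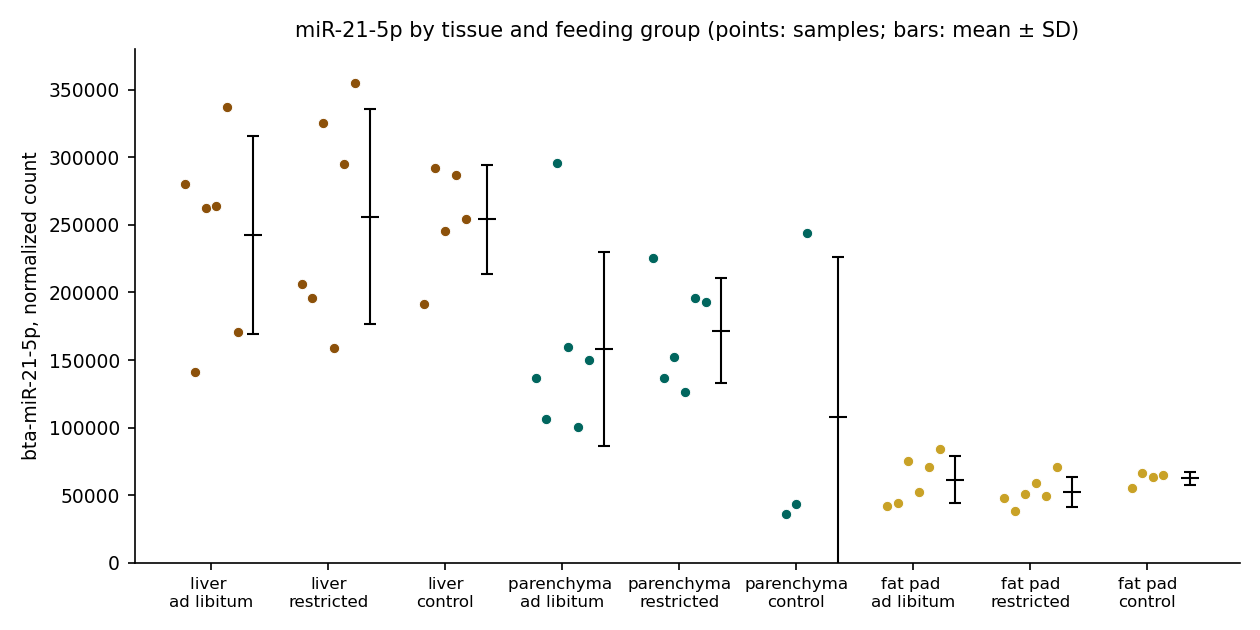
Normalized count of bta-miR-21-5p (y axis, linear) in each sample of the 9 groups (x axis), with points for samples and bars for the mean ± SD. The fat pad samples sit between 38162 and 84100, the milk replacer parenchyma between 100360 and 296183, and the control parenchyma is split, so that the lower end of its SD bar runs past the 0 of the axis.

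Ordered by their means, the groups were restricted liver (256182 ± 79666, SD, n = 6), control liver (254045 ± 40439, n = 5), ad libitum liver (242582 ± 73034, n = 6), restricted parenchyma (171706 ± 39004, n = 6), ad libitum parenchyma (158166 ± 71538, n = 6), control parenchyma (107998 ± 118121, n = 3), control fat pad (62523 ± 4759, n = 4), ad libitum fat pad (61541 ± 17657, n = 6) and restricted fat pad (52588 ± 11000, n = 6). No 2 neighbours in this order differed by more than the larger of their SDs. As a share of all normalized counts in a library, miR-21-5p made up 2.75% to 6.50% in liver, 3.39% to 8.44% in milk replacer parenchyma and 0.830% to 1.89% in the fat pad. It ranked 5 to 9 among all miRNAs of a library in liver, 3 to 7 in milk replacer parenchyma and 15 to 26 in the fat pad. In control parenchyma its rank was 28, 21 and 6 in replicates 1, 2 and 18.

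The first question was whether the tissues differ in miR-21-5p among animals fed milk replacer. All 12 parenchyma samples lay above all 12 fat pad samples. In limma, fitted on log2(normalized count + 1) over all miRNAs with a mean of at least 10, miR-21-5p was 2.84-fold higher in parenchyma (log2 difference 1.51 ± 0.16 SE, adjusted p = 6.4e-09). In that comparison 82.4% of the 336 miRNAs tested passed an adjusted p of 0.05, and the median change over all of them was 0.37, so passing the test was the usual outcome. The difference stayed between 1.41 and 1.56 when each sample was left out in turn. In bulk tissue, fewer cells of a type that holds miR-21 and less miR-21 per cell cannot be told apart.

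Liver exceeded the fat pad by more. All 12 milk replacer livers (140851 to 355093) were above all 12 fat pad samples (38162 to 84100), and the log2 difference was 2.11 ± 0.17 (SE), or 4.31-fold (limma, adjusted p = 4.0e-11). Here 76.8% of the miRNAs tested passed, and their median change was -0.20. In the control samples the difference between liver and fat pad was 2.01 ± 0.25 (SE, adjusted p = 2.9e-08 in limma, with 58.8% of miRNAs passing), and the 5 livers and 4 fat pads did not overlap.

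The order of liver and milk replacer parenchyma depended on the scaling. The normalized counts overlapped (140851 to 355093 in liver, 100360 to 296183 in parenchyma), with means of 249382 ± 73211 and 164936 ± 55387 (SD, n = 12 each) in liver and parenchyma. On the deposited scale liver was 1.52-fold higher (log2 difference 0.60 ± 0.18 SE, limma adjusted p = 0.0046), with 76.7% of miRNAs passing. When each library was rescaled to the same sum the difference was -0.14 (adjusted p = 0.405 in limma), and with upper quartile scaling it was 0.36 (adjusted p = 0.0979). Rescaling moved the median change of all miRNAs by -0.55, to -0.95 against -0.39 on the deposited scale. Set against that median, miR-21-5p stood higher in liver by 1.00 on the deposited scale, 0.81 after rescaling and 1.00 with upper quartile scaling (log2). As a share of the library miR-21-5p was 4.45% ± 1.24 in liver and 4.91% ± 1.48 in parenchyma (SD, n = 12 each).

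In the control samples the comparisons with parenchyma rested on how each of the 3 control parenchyma libraries behaved. Parenchyma replicates 1 and 2 (36412 and 43247) were below all 4 control fat pads (55639 to 66151), while replicate 18 (244335) was above them. The fitted log2 difference between parenchyma and fat pad was 0.22 ± 0.41 (SE, adjusted p = 0.702 in limma), where 40.8% of miRNAs passed. It was -0.65 without replicate 18 (adjusted p = 0.119), 0.72 without replicate 1 and 0.60 without replicate 2. Control liver was above control parenchyma by 1.79 ± 0.41 (SE, adjusted p = 0.00094 in limma, 42.3% of miRNAs passing). Parenchyma replicate 18 lay within the range of the control livers (191381 to 292226). This difference was 2.66 without parenchyma replicate 18, 1.29 without replicate 1 and 1.41 without replicate 2, and it passed in limma each time. The fit also held the milk replacer samples of both tissues, so its error did not come from the control samples alone. The exact permutation test on the control samples gave p = 0.0357, or 0.0714 after adjustment over the 12 comparisons of this arm.

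Of the 7 lists of cell type miRNAs, the immune, adipocyte-linked and erythroid sums set control parenchyma replicate 18 widely apart from replicates 1 and 2. The 7 immune cell miRNAs of the list summed to 100531 in replicate 18, against 5376 and 5059 in replicates 1 and 2. That sum was 12323 to 42087 in liver, 6705 to 15777 in milk replacer parenchyma and 3508 to 5094 in the fat pad. Its largest member in milk replacer parenchyma was miR-146b, with a mean of 8332 against 653.6 in the milk replacer fat pad. miR-155 went the other way (221.3 against 990.0) and miR-150 was near level (773.1 against 747.4). The other members had higher means in milk replacer parenchyma than in the fat pad. The 6 adipocyte-linked miRNAs summed to 97454 and 97161 in control parenchyma replicates 1 and 2 and to 22808 in replicate 18, against 10855 to 26002 in milk replacer parenchyma and 43986 to 124018 in the fat pad. The erythroid sum was 3727, 3332 and 943 in replicates 1, 2 and 18. In the epithelial, hepatocyte, stromal and endothelial lists the sum of replicate 18 lay between those of the other 2 samples. Replicate 18 thus had the high immune sum and the high miR-21-5p, and replicates 1 and 2 had adipocyte-linked sums within the range of the fat pad. The part of these cell types in the level of miR-21-5p was not tested.

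The second question was whether feeding changed miR-21-5p within a tissue. Between ad libitum and restricted feeding no difference passed the test in any tissue. The log2 difference was -0.19 in parenchyma (95% confidence interval -0.99 to 0.61, adjusted p = 0.980), 0.20 in the fat pad (-0.17 to 0.57, adjusted p = 0.457) and -0.08 in liver (-0.57 to 0.41, adjusted p = 0.986), all in limma. None of the 339 miRNAs tested in parenchyma passed, or 0%, and 0 had an unadjusted p below 0.05. In the fat pad 16.6% passed and in liver 0.324%. Each fit held all samples of its tissue, so the spread among the control parenchyma samples entered the error there. The SE of miR-21-5p was 0.38 in parenchyma, against 0.18 in the fat pad and 0.24 in liver. The absence of calls in parenchyma thus does not show that feeding had no effect. An exact permutation test on miR-21-5p alone, in the ad libitum and restricted samples only, gave p = 0.498 in parenchyma, 0.361 in the fat pad and 0.781 in liver, two-sided and not adjusted.

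Between milk replacer and control, miR-21-5p was higher in parenchyma, a result that rested on few samples. The 12 milk replacer samples ranged from 100360 to 296183 (median 151169), and the 3 control samples had 36412, 43247 and 244335, so the groups overlapped through replicate 18. The epithelial miRNAs moved with this contrast: their sum was 61328 to 110804 in the milk replacer samples and 92.5 to 421 in the 3 control samples, and its part in the result was not tested. The log2 difference was 1.11 ± 0.42 (SE), or 2.17-fold, with an adjusted p of 0.0405 in limma, where 45.4% of miRNAs passed. It did not pass in 10 of 15 fits that left out 1 sample. It was 0.62 without control replicate 1 (adjusted p = 0.298), 0.74 without replicate 2 (adjusted p = 0.218) and 1.99 without replicate 18 (adjusted p = 6.0e-05). The exact permutation test gave p = 0.0286, or 0.0686 after adjustment over the 12 comparisons of this arm. In the fat pad the same difference was -0.17 (95% confidence interval -0.54 to 0.20, adjusted p = 0.514) and in liver -0.07 (-0.53 to 0.38, adjusted p = 0.882), with 11% and 6.8% of miRNAs passing.

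**Figure D2:**
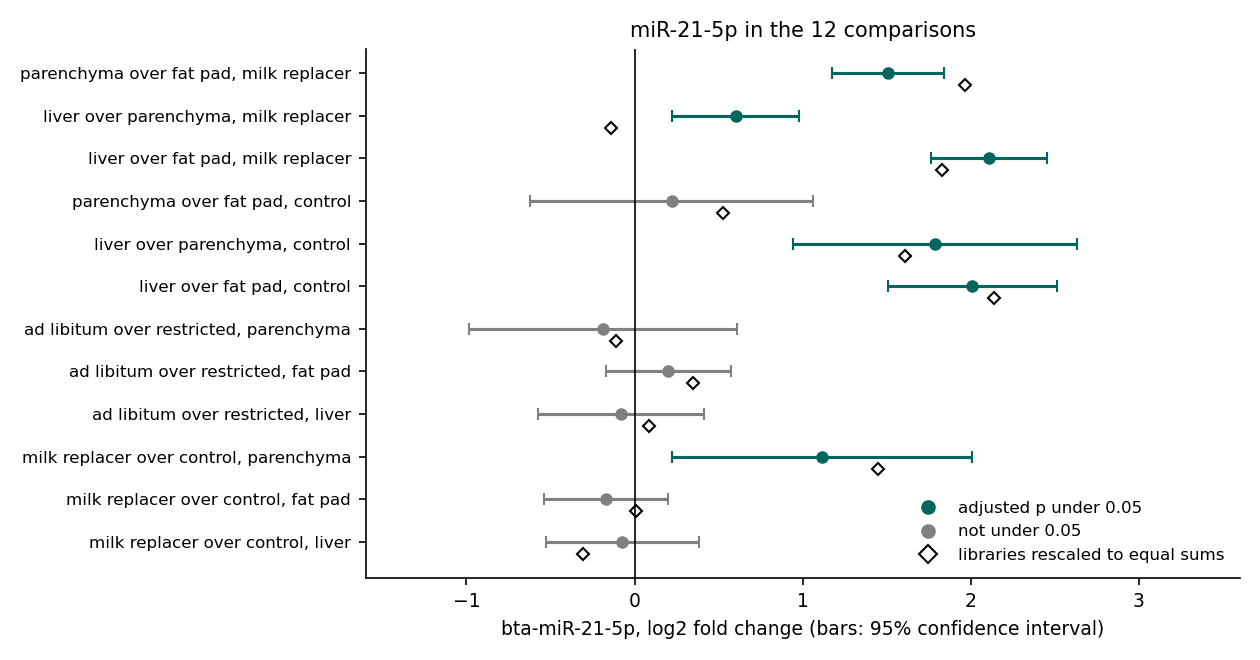
Log2 fold change of bta-miR-21-5p (x axis) in the 12 comparisons (y axis), with points and bars for the limma estimate and its 95% confidence interval, in green where the adjusted p was under 0.05 and in grey otherwise. Diamonds give the change after each library was rescaled to the same sum. The 3 comparisons of ad libitum with restricted feeding include 0, and liver over parenchyma is the comparison of tissues whose sign turned on rescaling (0.60 as deposited, -0.14 rescaled).

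The difference of these effects between tissues was tested in a fit over all 48 samples. The milk replacer effect in parenchyma exceeded that in the fat pad by 1.29 ± 0.44 (log2, SE, adjusted p = 0.0239 in limma, 25.8% of miRNAs passing). The effect in liver was below that in parenchyma by a difference of -1.19 ± 0.42 (adjusted p = 0.0211, 40.3% passing). Liver and fat pad differed by 0.10 ± 0.40 (adjusted p = 0.931, 11.3% passing). Leaving out control parenchyma replicate 1 or 2 ended both calls: the difference between parenchyma and fat pad was then 0.79 (adjusted p = 0.206) or 0.91 (adjusted p = 0.149), and that between liver and parenchyma -0.69 (adjusted p = 0.227) or -0.81 (adjusted p = 0.165). Without replicate 18 they were 2.16 and -2.06. The call between parenchyma and fat pad also ended when the number of the sample was added to the fit as a block. For ad libitum over restricted feeding the differences were -0.39 between parenchyma and fat pad, 0.11 between liver and parenchyma and -0.28 between liver and fat pad. None of these passed (adjusted p = 1, 0.985 and 0.871), and 0%, 0.29% and 0% of miRNAs did.

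miR-21-3p was a trace product that was read mainly in parenchyma. It was above 0 in 12 of 12 milk replacer parenchyma samples, where 25 to 101 reads gave normalized counts of 11.1 to 45.1. The ad libitum samples ranged from 16.9 to 42.5 (median 20.5) and the restricted samples from 11.1 to 45.1 (median 19.6), so the ad libitum range lay within the restricted one. Control parenchyma had 0, 19.1 and 12.7 (0, 33 and 26 reads in replicates 1, 2 and 18). Replicate 1 was the parenchyma sample with no listed reads although its library was among the deeper ones, with 9002775 reads. In liver 4 of 17 samples were above 0, ad libitum replicates 7 and 15 with 9.96 and 14.3, restricted replicate 10 with 12.0 and control replicate 2 with 12.8. These stood for 6 to 8 reads each. All 16 fat pad samples were listed at 0.

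Because parenchyma was sequenced more deeply, the zeros were read as limits of 5 reads. The milk replacer parenchyma held 3.12 to 12.2 reads of miR-21-3p per 1000000 miRNA reads (mean 7.28 ± 3.03, SD, n = 12). The limit was at most 2.35 on that scale in each of the 16 fat pad libraries, below the lowest of these parenchyma samples. In liver the count or limit was below that sample in 14 of 17 libraries, and the remaining 3 were too shallow to tell. Summed over samples, liver held 28 listed reads of miR-21-3p (at most 93 with the zeros at their limit) beside 2388830 of miR-21-5p. Milk replacer parenchyma held 694 beside 4686244, and the whole fat pad 0 (at most 80) beside 1081315.

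**Figure D3:**
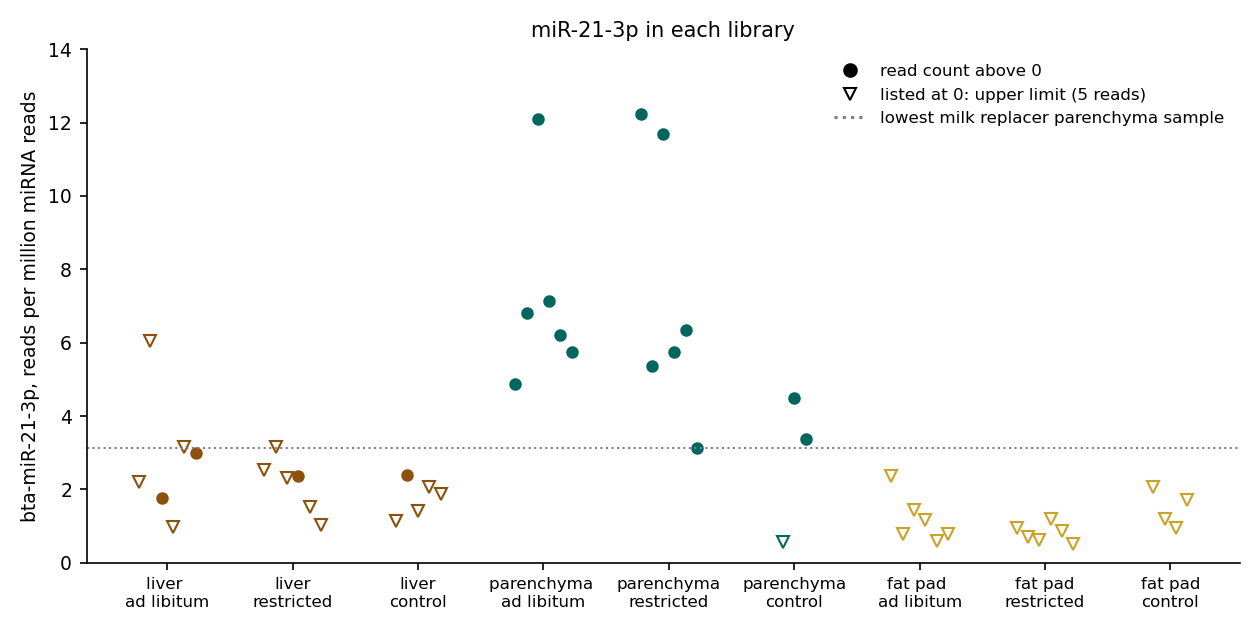
Reads of bta-miR-21-3p per 1000000 miRNA reads (y axis, linear) in each library of the 9 groups (x axis), with filled points for libraries with listed reads and open triangles for the upper limit of libraries listed at 0. The dotted line marks the lowest milk replacer parenchyma sample, at 3.12. All 16 fat pad limits are below it, and 3 of 17 liver libraries are not.

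This arm passed the filter on low values only in fits with parenchyma, where it is high, so a difference between parenchyma and another tissue was built into its entry. The fitted changes between tissues are therefore given as a description, with no p. It was in no fit of liver with fat pad or of feeding within these tissues. On the deposited values it was 4.56 ± 0.26 (log2, SE) above the fat pad in milk replacer parenchyma, a size that depends on the pseudocount because one side is at 0. With each 0 set to 5 reads the fitted difference was 2.17 ± 0.24, in a fit where 82.7% of miRNAs passed. Liver was lower than milk replacer parenchyma by a difference of -3.63 ± 0.52 on the deposited values. With zeros at 5 reads it was -0.80 ± 0.27, in a fit where 80.8% of miRNAs passed. In the control samples the difference between parenchyma and fat pad was 2.70 ± 0.68, but 0.24 ± 0.51 with zeros at 5 reads. That between control liver and control parenchyma was -1.95 ± 1.06, but -0.11 ± 0.53 with zeros at 5 reads. On the deposited values it was -3.30 without parenchyma replicate 1 and -2.70 without liver replicate 2. Over all fits that left out 1 sample it ranged from -3.30 to -1.13.

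Within parenchyma, miR-21-3p did not pass between ad libitum and restricted feeding (log2 difference -0.04, 95% confidence interval -1.33 to 1.25, adjusted p = 0.980 in limma). That fit also held the control samples, whose spread entered the error. Between milk replacer and control the log2 difference of miR-21-3p was 1.85 ± 0.68 (SE, adjusted p = 0.0355 in limma). That call ended with zeros at 5 reads (1.24, adjusted p = 0.0566) and without control replicate 1, the sample listed at 0 (0.50, adjusted p = 0.471).

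The ratio of the arms in reads is taken within a library and does not depend on its size factor. The fitted ratio uses normalized counts with a pseudocount of 1, so where the 3p arm is at 0 it does depend on the size factor. In milk replacer parenchyma there were 3756 to 17387 reads of the 5p arm for each read of the 3p arm (median 7078, mean log2 ratio 12.78 ± 0.55, SD, n = 12). The lowest was restricted replicate 8 and the highest restricted replicate 16, and the ad libitum samples (5242 to 8116) lay between them. As a share of both arms miR-21-3p ranged from 0.0266% (exact Clopper-Pearson 95% interval 0.0214% to 0.0328%) in restricted replicate 8 to 0.00575% (0.00372% to 0.00849%) in restricted replicate 16. These intervals cover counting error only, and they do not overlap. The 2 control parenchyma samples with listed 3p reads were at the outer ends of the range, 2267 in replicate 2 and 19180 in replicate 18. Replicate 1 had a ratio of at least 14309.

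**Figure D4:**
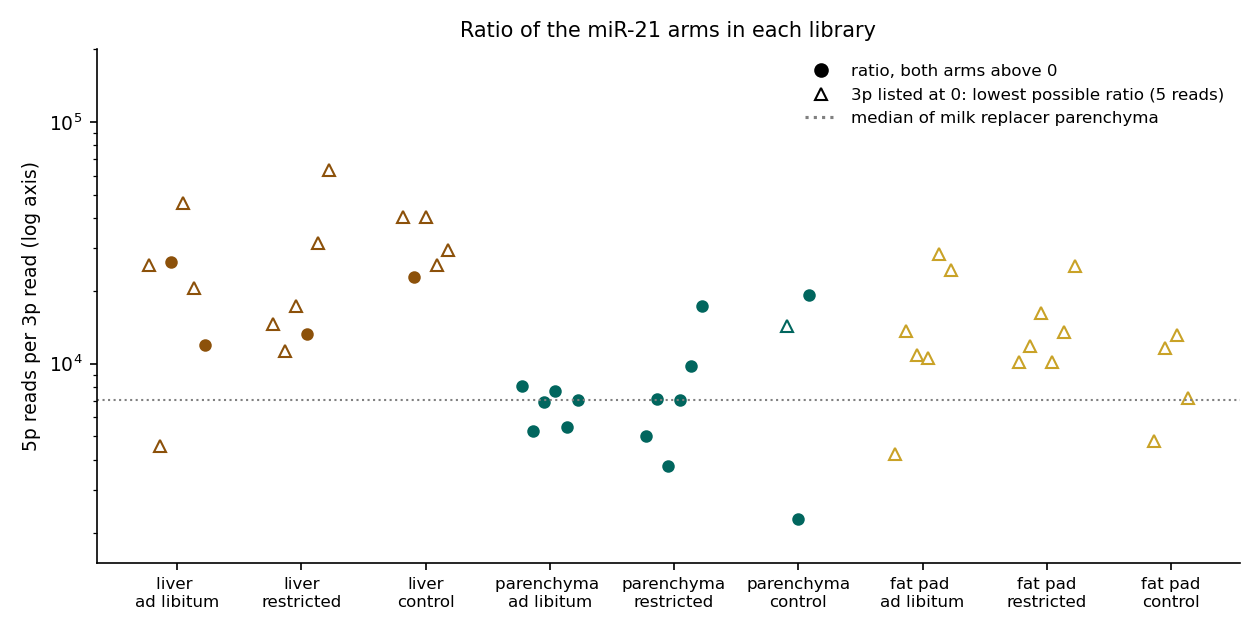
Reads of bta-miR-21-5p per read of bta-miR-21-3p (y axis, log scale) in each library of the 9 groups (x axis), with filled points where both arms were listed and open triangles for the lowest possible ratio where the 3p arm was listed at 0. The dotted line is the median of milk replacer parenchyma, 7078. Liver values and limits lie above it in 16 of 17 libraries and fat pad limits in 14 of 16.

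In liver the 5p arm was mostly more dominant than in milk replacer parenchyma, while in the fat pad the limits leave the size of any difference unknown. The 4 liver libraries with listed 3p reads had ratios of 11960 to 26340, and with the zeros at 5 reads the lowest possible ratio was above the median of milk replacer parenchyma in 16 of 17 livers and above its highest sample in 12 of 17. In the fat pad the lowest possible ratio exceeded that median in 14 of 16 libraries and the highest sample in 3 of 16. The ratio could be fitted between tissues only through the 3p arm of parenchyma, so its fitted differences are also given with no p. The log2 ratio of milk replacer parenchyma was below that of the fat pad by a difference of -3.05 ± 0.19 (SE) on the deposited values, with 90% of the 30 arm pairs tested passing in limma. It was -0.66 ± 0.23 with zeros at 5 reads (90% of pairs passing) and -0.22 with a pseudocount of 10. Liver exceeded milk replacer parenchyma by 4.23 ± 0.56 (65.5% of 29 pairs passing), or 1.40 ± 0.29 with zeros at 5 reads (58.6% of pairs passing).

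In control samples the log2 ratio differed by -2.48 ± 0.53 between parenchyma and fat pad (SE, 53.3% of pairs passing in limma). With zeros at 5 reads it was -0.02. Control liver was above control parenchyma by 3.73 ± 1.05 (24.1% passing), or 1.90 with zeros at 5 reads, and by 2.55 without parenchyma replicate 2. The ratio did not pass between ad libitum and restricted parenchyma (-0.14, 95% confidence interval -1.20 to 0.91, adjusted p = 0.951 in limma), where 0% of pairs passed and 0 had an unadjusted p below 0.05. The spread of the control samples entered the error of this fit as well. Between milk replacer and control parenchyma the ratio differed by -0.74 ± 0.56 (adjusted p = 0.430 in limma, 14.3% passing). This turned to 0.11 without control replicate 1, and was -1.93 without replicate 2 (adjusted p = 0.0016). Its direction thus depended on which control sample was left out.

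Among all 47 precursors with both arms in the table, miR-21 had the most unequal arms on the deposited values. Its median log2 ratio over the 48 samples was 15.61 (5p over 3p, pseudocount 1), beside a median size of 2.59 over the 47 pairs. The next were miR-10174 (-13.65) and miR-23b (-12.19), in which the 3p arm dominates, and miR-99a (10.19). The size of the miR-21 median depends on the pseudocount and on the size factors, since 30 of 48 values of its 3p arm are at 0. With zeros at 5 reads the medians were 13.62 for miR-21, -11.28 for miR-10174, 10.20 for miR-99a and -9.95 for miR-23b, and miR-21 was again first. In 19 pairs the 5p arm was higher and in 19 the 3p arm. miR-21 was also first among the 31 pairs with both arms above 0 in all 12 milk replacer parenchyma samples, where its median was 12.72. miR-10174 and miR-23b had both arms above 0 in 9 of these samples and so were not among the 31. Their medians there were -11.19 and -9.65 (pseudocount 1). Over the 48 samples, the medians of these pairs and of miR-21 with zeros at 5 reads are lower limits of size, so they do not settle the order. miR-99a, with 9.72, had an SD of 0.26 over those samples, against 0.53 for miR-21. The minor arm averaged 407.3 normalized counts over the 48 samples for miR-99a and 7.81 for miR-21.

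**Figure D5:**
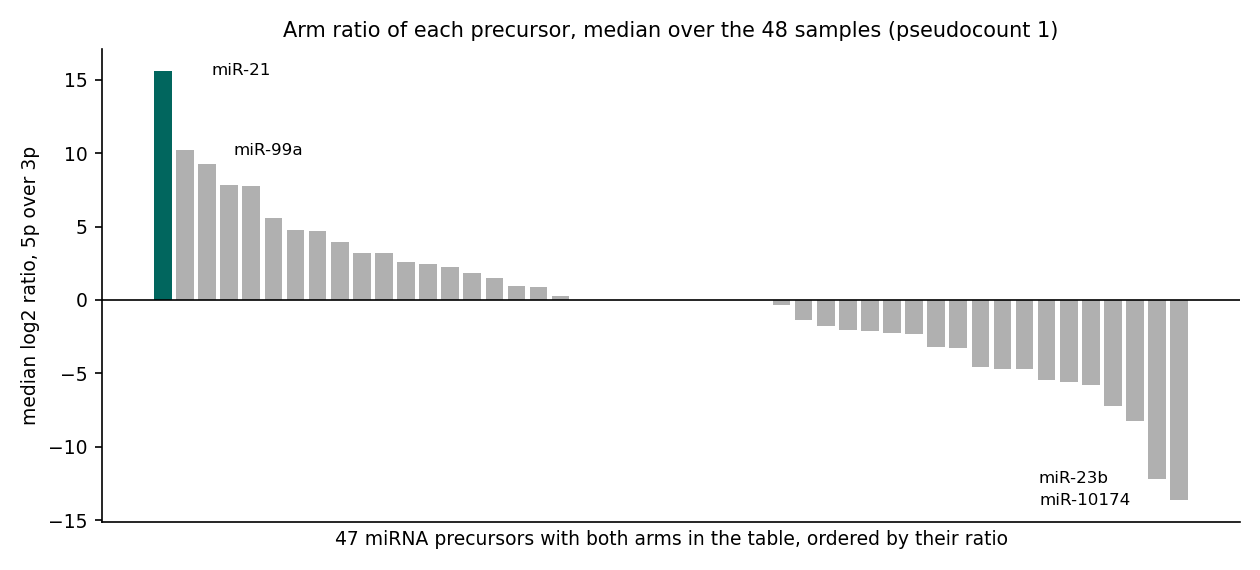
Median log2 ratio of the 5p to the 3p arm over the 48 samples (y axis) for each of the 47 precursors with both arms in the table, ordered by their ratio (x axis), with miR-21 in green. miR-21 stands at 15.61 and the next 5p-dominant pair, miR-99a, at 10.19.

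The levels of the arms followed each other only loosely. Over the 12 milk replacer parenchyma samples Pearson's r between them was 0.42 on the log2 scale (permutation p = 0.176) and Spearman's rho 0.48 (permutation p = 0.114), with adjusted p of 0.562 and 0.457 over 4 relations tested. Without the 2 samples farthest from the median miR-21-5p it was 0.21, and it was 0.85 within the 6 ad libitum samples and 0.12 within the 6 restricted samples. The other relations compared miR-21-5p between tissues of the same number, over 12 numbers each. Pearson's r was 0.27 for liver with parenchyma (permutation p = 0.399), 0.18 for liver with fat pad (0.562) and 0.23 for parenchyma with fat pad (0.465). Spearman's rho was 0.26, 0.18 and 0.17 for the same pairs (permutation p = 0.416, 0.567 and 0.604). None passed after adjustment (0.562 for r and 0.604 for rho).

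The miRNAs with the pattern most like miR-21-5p were sought among 248 with a mean of at least 50, by Pearson's r on log2(normalized count + 1) over the 48 samples. The points share tissues and size factors, so r is a description. The highest were miR-3613a (0.88), miR-142-3p (0.88), miR-375 (0.87), miR-20a (0.86) and miR-223 (0.85), beside a median of -0.02. miR-142-3p and miR-223 are miRNAs of blood and immune cells, and miR-20a belongs to the growth-linked cluster of miR-17. miR-142-3p averaged 1963 in milk replacer liver, 406.7 in parenchyma and 130.8 in the fat pad. The lowest were let-7b (-0.88), miR-320a (-0.88) and miR-125b-1 (-0.87). With the mean of each of the 9 groups taken off, miR-142-3p led (0.86), followed by miR-146a (0.82), an NF-kappaB-induced regulator of inflammation, miR-32 (0.82), miR-15a (0.81) and miR-3613a (0.77). Some of these values lean on the control parenchyma, where miR-142-3p had 77.4, 412.3 and 13636 in replicates 1, 2 and 18. Over the 45 other samples the same coefficients were 0.77 for miR-142-3p, 0.70 for miR-146a, 0.81 for miR-32, 0.80 for miR-15a and 0.67 for miR-3613a.

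miR-21-3p had other neighbours, and its r with miR-21-5p over the 48 samples was 0.27. The highest were miR-1271 (0.88), miR-146b (0.76), miR-34a (0.74), miR-205 (0.74) and miR-141 (0.73). miR-205 and miR-141 are epithelial miRNAs. They averaged 16822 and 891 in milk replacer parenchyma, where miR-1271 averaged 1625, against 369.4 for miR-1271 in the fat pad. The lowest were miR-26b (-0.82), miR-26a (-0.80) and let-7f-2 (-0.80). With the group means taken off miR-1271 was still first, at 0.64, and miR-148b (0.60) and miR-30e-5p (0.55) followed, against 0.52, 0.50 and 0.40 without control parenchyma. Since 30 of 48 values of miR-21-3p are listed at 0, these coefficients mostly reflect in which samples it was listed.

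The 3 lists of miRNAs named beside miR-21 in inflammation, fibrosis and tumour growth give its setting. Of 10 inflammation-linked miRNAs, 6 were higher and 2 lower in milk replacer parenchyma relative to the fat pad (median log2 difference 1.43, against 0.37 over all miRNAs tested, of which 82.4% passed). miR-146b, which dampens NF-kappaB signalling, was higher by 3.75 ± 0.23 (SE, limma adjusted p = 1.6e-13), and miR-142-5p, of blood cells, by 1.32 ± 0.15 (adjusted p = 1.4e-08), while miR-146a differed by 0.18 ± 0.15 (adjusted p = 0.285). miR-125b-1 differed by -0.53 ± 0.12 (adjusted p = 0.00020). In milk replacer liver against parenchyma 6 were higher and 4 lower (median 0.83, against -0.39 over all, with 76.7% of all passing). There miR-146a was higher by 3.05 ± 0.19 (adjusted p = 3.7e-13 in limma) and miR-146b differed by -2.61 ± 0.19 (adjusted p = 6.6e-12). In the milk replacer samples miR-146a was thus higher in liver and miR-146b higher in parenchyma, while miR-21-5p exceeded the fat pad in both.

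Of 15 growth and tumour linked miRNAs, 13 were higher and 2 lower in milk replacer parenchyma relative to the fat pad (median 1.17, against 0.37 over all, with 82.4% of all passing). miR-221, which represses cell cycle inhibitors in human cells, was higher by 1.12 ± 0.08 (SE, limma adjusted p = 1.1e-11), and miR-17-5p by 0.97 ± 0.11 (adjusted p = 1.0e-08). miR-10b, encoded in a HOX gene cluster, differed by -2.15 ± 0.12 (adjusted p = 2.8e-14). In liver against parenchyma 3 were higher and 8 lower, beside 76.7% of all miRNAs passing, and the median of -0.39 equalled that over all miRNAs. In liver against fat pad 10 were higher and 4 lower (median 1.10, against -0.20 over all, with 76.8% of all passing), with miR-92a-1 higher by 1.34 ± 0.12 (adjusted p = 4.3e-10 in limma).

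Of 13 fibrosis and TGF-beta linked miRNAs, 4 were higher and 5 lower in milk replacer parenchyma relative to the fat pad (median -0.09, against 0.37 over all, with 82.4% of all passing). Of the arms of miR-199a-1, miRNAs of fibroblasts, the 5p arm was higher by 0.70 ± 0.10 (SE, limma adjusted p = 6.3e-07) and the 3p arm differed by -0.09 ± 0.10 (adjusted p = 0.397). miR-192, also on the list of hepatocyte miRNAs, differed by 0.22 ± 0.11 (adjusted p = 0.0760). miR-143, of smooth muscle, differed by -0.99 ± 0.11 (adjusted p = 2.9e-08). In liver against parenchyma 4 were higher and 6 lower (median 0.16, against -0.39 over all, with 76.7% of all passing), with miR-192 higher by 7.58 ± 0.15 (adjusted p = 1.3e-23 in limma). Between ad libitum and restricted feeding none of the tested members of the 3 lists passed in parenchyma or liver, beside 0% and 0.324% of all miRNAs there. In the fat pad 1 was higher and 4 were lower, counted over the fibrosis and growth lists (13 members of each tested), beside 16.6% of all miRNAs, and no inflammation-linked miRNA passed. Between milk replacer and control parenchyma 3 inflammation-linked miRNAs were higher and 2 lower, 3 fibrosis-linked miRNAs were higher and 5 lower, and 6 growth-linked miRNAs were higher and 2 lower, beside the 45.4% of all miRNAs that passed there.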

How the data were processed

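The authors prepared the small RNA libraries by adaptor ligation and PCR, and the submitters' processing notes list DESeq2, Trim Galore, FastQC and bcl2fastq with no version. A mapping program, genome build or miRNA database for this table is not given in the sources used here. Deposited values are normalized read counts, read counts per miRNA divided by a size factor, and were recorded as a score rather than as counts because each line of the table carries a second pair of quotes. All 16536 values above 0 were whole multiples of a step (tolerance 0.01). No count model was used. The table's columns of the authors' comparison and its mean column were not used.

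The comparisons used R 4.3.3 and limma 3.58.1, with a variance trend, on log2(value + 1) of miRNAs with a mean of at least 10, with two-sided p-values adjusted by Benjamini-Hochberg. Arm ratios were fitted over pairs with both arms at that level. Single values were tested by permutation in R (exact, or 100000 resamples), and the 4 relations by 100000 resamples in Python 3.11.15. Other pseudocounts, filters, scalings, a replicate block, 1 fit over all samples and leaving out each sample were tried. Fits were tested on simulated data. Members, lists and most tests were chosen with earlier results of these data known. The miRNAs named are the arms, the 5 most and 3 least alike, and up to 4 members of each list. Of numbered copies, which share reads, the highest was taken. Setting zeros to 5 reads, and likeness without control parenchyma, were added after the data were seen. Mature sequences were not used here.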

Additional observations from a re-analysis of the deposited data

Results flagged for a closer look

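In parenchyma, ad libitum replicate 7 stood apart from the other 5 samples of its group in both arms, with 296183 normalized counts of miR-21-5p and 42.5 of miR-21-3p. Its ratio of the arms, 6971, was within the range of the group (5242 to 8116). In liver, restricted replicate 10 (12.0) and control replicate 2 (12.8) were each the one sample of their group with miR-21-3p above 0, from 7 reads each. Chance marks about 1 in 20 groups in this way, and 15 sets of values were examined. That rate does not apply to these liver groups, where all other values were at 0 and any listed value is marked.

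The effect of milk replacer over control on miR-21-5p differed between tissues, by 1.29 for parenchyma minus fat pad and by -1.19 for liver minus parenchyma (log2). Both rest on the 3 control parenchyma samples, and both calls ended when control parenchyma replicate 1 or 2 was left out. The call for parenchyma minus fat pad also ended with a replicate block.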

How the results depend on the processing

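Depth limits miR-21-3p, since up to 5 reads are listed at 0. Of the alternatives that did not leave out a sample, 281 were unchanged, 7 turned in direction, 14 no longer passed and 6 moved a count of miRNAs called. Unchanged means the same direction and side of the threshold, or a similar count of miRNAs called. Values below are log2 changes, and causes were not tested. With zeros at 5 reads, control parenchyma over fat pad gave 0.24 for miR-21-3p and -0.023 for the ratio, and milk replacer over control parenchyma 1.24 for miR-21-3p. A pseudocount of 10 gave -0.22 and -0.69 for the ratio in milk replacer and control parenchyma over fat pad, and, in milk replacer over control parenchyma, 0.81 for miR-21-3p and 0.30 for the ratio. Without a filter, milk replacer over control parenchyma stayed at 1.11 and 1.85 for the 5p and 3p arms, with adjusted p of 0.0609 and 0.0501. Rescaling to equal sums gave -0.14 for miR-21-5p in milk replacer liver over parenchyma, 0.088 in ad libitum over restricted liver, 0.0056 in milk replacer over control fat pad, and -0.31 for the difference of that effect between liver and fat pad. Upper quartile scaling gave 0.36 in milk replacer liver over parenchyma, 0.89 and 1.69 for the arms in milk replacer over control parenchyma, and -0.27 for that difference. The change of miR-21-3p in control parenchyma over fat pad stayed at 2.70 in the permutation test and is counted among those that no longer passed. Its p is not given, since this arm entered the fits through parenchyma, where it is high.

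The labels do not say whether same-numbered samples are pairs, but a number had the same feeding label in every tissue. The correlation of their deviations from the group means was over 0.1 in 8 of 14 pairs of parenchyma and fat pad. It was over 0.1 in 5 of 15 pairs of liver and parenchyma and 9 of 16 of liver and fat pad. Its medians were 0.12, 0.07 and 0.13, against -0.012, -0.015 and -0.013 between samples of different numbers. A sample correlated best with its own number in 3, 1 and 3 of these pairs. Pairing was thus neither shown nor excluded. With a replicate block, the ratio in control liver over parenchyma was 3.16 (adjusted p = 0.0651), the milk replacer effect on miR-21-5p in parenchyma minus fat pad 0.99 (adjusted p = 0.0824) and in liver minus fat pad -0.089. In milk replacer parenchyma over fat pad 280 miRNAs passed with the block, against 277.

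In 1 fit over all 48 samples the miRNAs called were 10 against 50 for ad libitum over restricted fat pad, 2 against 1 in liver, 20 against 33 for milk replacer over control fat pad and 35 against 21 in liver. In ad libitum over restricted liver 0 were called with no filter or after rescaling.

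The ranges below come from leaving out 1 replicate at a time. For miR-21-5p they were -0.65 to 0.72 in control parenchyma over fat pad and -0.20 to 0.0651 in ad libitum over restricted liver. In milk replacer over control parenchyma the range was 0.62 to 1.99. The differences of effects ranged from 0.79 to 2.16 for milk replacer in parenchyma minus fat pad, -2.06 to -0.69 in liver minus parenchyma, and -0.018 to 0.31 for ad libitum feeding in liver minus parenchyma. For miR-21-3p they ran from -3.30 to -1.13 in control liver over parenchyma, -0.24 to 0.15 in ad libitum over restricted parenchyma and 0.50 to 2.67 in milk replacer over control parenchyma. For the ratio they ran from 2.55 to 4.59, -0.33 to 0.092 and -1.93 to 0.11 in these comparisons. The miRNAs called ranged from 32 to 58 for ad libitum over restricted fat pad, 0 to 1 in liver, 20 to 44 for milk replacer over control fat pad and 9 to 24 in liver.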
